A study of Mus musculus with 16 samples.

Results

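The immediate-early genes and Nr4a receptors described here are 10 genes of the 39057 in the count table, namely Fos, Jun, Junb, Atf3, Egr1, Ier2, Ier3, Nr4a1, Nr4a2 and Nr4a3. They were chosen by symbol, with gene identifiers mapped to symbols through GENCODE release M21 and no threshold on a measured value. Immediate-early genes are transcribed within minutes of a stimulus from factors already present in the cell, so they need no new protein to be switched on. Growth factors, calcium and cyclic AMP reach them through MAP kinases, serum response factor and CREB, and their messages are short-lived. Most encode transcription factors, and in endothelium they are known for responses to flow, wounding and growth factors.

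The libraries came from primary cultures of cortical brain endothelial cells of targeted replacement mice, in which human *APOE* replaces the mouse gene under the mouse promoter. The *APOE3* group and the *APOE4* group each held 8 libraries, 4 from males and 4 from females, and each library came from the culture of 1 animal. The animals were given as 21 to 28 days old, all cultures had been selected with puromycin at 8 µg/ml, and none was treated further. The comparison asks whether the human *APOE* genotype of the cells goes with another level of these transcripts in cultures without further treatment. Poly-A RNA was sequenced, and the total count was 12717847 to 18624417 per library. All 10 genes passed the filter on low counts, and the fewest reads of any of them in 1 library were 20, for Nr4a3.

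The cultures carried the markers of their labelled cell type. The 15 brain endothelial markers, such as Cdh5 and Pecam1, were all detected, and summed to 21326 to 22857 CPM (counts scaled to the size of the library) in the *APOE3* libraries and 21624 to 23974 CPM in the *APOE4* libraries. Pericyte and smooth muscle markers summed to 188 to 354 and 223 to 340 CPM in *APOE3* and *APOE4* libraries, and fibroblast markers to 13.3 to 65.3 and 10.4 to 85.2 CPM. Among the markers of astrocytes, microglia, oligodendrocytes and neurons, Aqp4, Cx3cr1, P2ry12, Olig2 and Snap25 had 3 counts or fewer in every library, as had all 5 erythroid markers. Human *APOE* had 7672 to 22318 counts per library. A list of 30 cell cycle genes stood higher in *APOE4* cultures. By edgeR at an adjusted p under 0.05, 27 of 30 genes were called higher and none lower, beside 6.71% and 6.09% of all genes tested. The list summed to 1379 to 2753 CPM in *APOE3* libraries and 2277 to 3892 CPM in *APOE4* libraries, and its values are given beside the results below.

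The stretches of promoter of 4 of these genes are shown because the Nr4a genes and Fos are known targets of CREB, whose short half-site reads TGACG. Capitals mark each TGACG on either strand, so the reverse complement appears as CGTCA. Each sequence runs 5′ to 3′ on the strand of the gene, covers up to 250 bases before the RefSeq start and is taken from RefSeq on GRCm38.p6. For Nr4a1 that start lies within the longer gene that GENCODE annotates, away from its exons. For Nr4a3 the GENCODE start comes first, so the 98 bases before it are shown.
Nr4a1, chr15:101266596-101266845, plus strand: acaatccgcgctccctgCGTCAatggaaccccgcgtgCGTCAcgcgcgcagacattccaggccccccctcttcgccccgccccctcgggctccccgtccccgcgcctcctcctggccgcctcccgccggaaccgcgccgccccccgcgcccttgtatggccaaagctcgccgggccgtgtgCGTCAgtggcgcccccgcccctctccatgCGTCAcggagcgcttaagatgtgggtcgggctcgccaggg
Nr4a2, chr2:57124004-57124253, minus strand: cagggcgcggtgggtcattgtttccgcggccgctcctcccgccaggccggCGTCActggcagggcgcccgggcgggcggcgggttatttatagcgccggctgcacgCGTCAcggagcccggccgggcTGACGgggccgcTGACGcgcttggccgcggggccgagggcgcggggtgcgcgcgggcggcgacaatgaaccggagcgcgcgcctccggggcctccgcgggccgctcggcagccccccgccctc
Nr4a3, chr4:48045055-48045152, plus strand: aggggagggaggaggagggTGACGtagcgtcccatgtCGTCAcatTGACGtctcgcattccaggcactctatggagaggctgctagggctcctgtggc
Fos, chr12:85473640-85473889, plus strand: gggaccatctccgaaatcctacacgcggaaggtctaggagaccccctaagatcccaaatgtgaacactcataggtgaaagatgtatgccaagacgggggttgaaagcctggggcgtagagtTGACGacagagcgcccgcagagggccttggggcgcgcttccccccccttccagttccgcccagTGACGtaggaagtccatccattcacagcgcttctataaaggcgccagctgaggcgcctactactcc

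The promoters of Nr4a1, Nr4a2 and Nr4a3 each held 4 copies of TGACG, with 3 of those of Nr4a3 in the stretch shown, and that of Fos held 2. The search took in 50 bases after the start as well, on both strands. Of all 32851 promoter windows of the same length, 20.8% held at least 1 copy, 5.01% at least 2 and 0.231% at least 4. Junb and Atf3 had 1 copy each and Jun and Ier3 had none, while Egr1 and Ier2 were not analysed for sequence. The EGR motif GCGNGGGCG occurred once in the windows of Nr4a1 and Nr4a2 and in 5.55% of all windows. The full CREB site TGACGTCA, which holds the half-site on both strands, the AP-1 site TGANTCA and the Nr4a site AAAGGTCA had no match in any of the 8 windows, nor had the serum response element core known as the CArG box. They occurred in 1.79%, 7.81%, 1.51% and 1.63% of all windows, in that order. Sites farther from the start than these windows were not searched for. A match is a run of letters and was not tested as a binding site.

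Levels were compared between genes as CPM per kb of exonic length, averaged over the 16 libraries. Ier3, an apoptosis and stress response factor, stood at the top with 85.1 ± 8.17 CPM per kb (SD, n = 16), followed by the AP-1 subunit Jun with 59.2 ± 2.82. Junb, another AP-1 subunit, had 43.7 ± 4.39 and Ier2, a small nuclear protein, had 41.2 ± 4.65 CPM per kb. These neighbours did not differ beyond their spread, since Junb was above Ier2 in 11 of 16 libraries. Egr1, a zinc finger transcription factor, had 23.3 ± 3.78, Atf3, a stress-induced bZIP factor, 10.8 ± 1.12, and Fos, the partner of Jun in AP-1, 5.83 ± 0.718 CPM per kb. The Nr4a genes, which encode orphan nuclear receptors, made up the lower end. Nr4a1 had 4.77 ± 0.665 CPM per kb, Nr4a2 1.17 ± 0.204 and Nr4a3 0.439 ± 0.167. Fos was above Nr4a1 in 15 of 16 libraries and Nr4a2 above Nr4a3 in all 16, but both of these pairs overlapped in range over the libraries. All other neighbours in the order were separated without overlap.

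**Figure D1:**
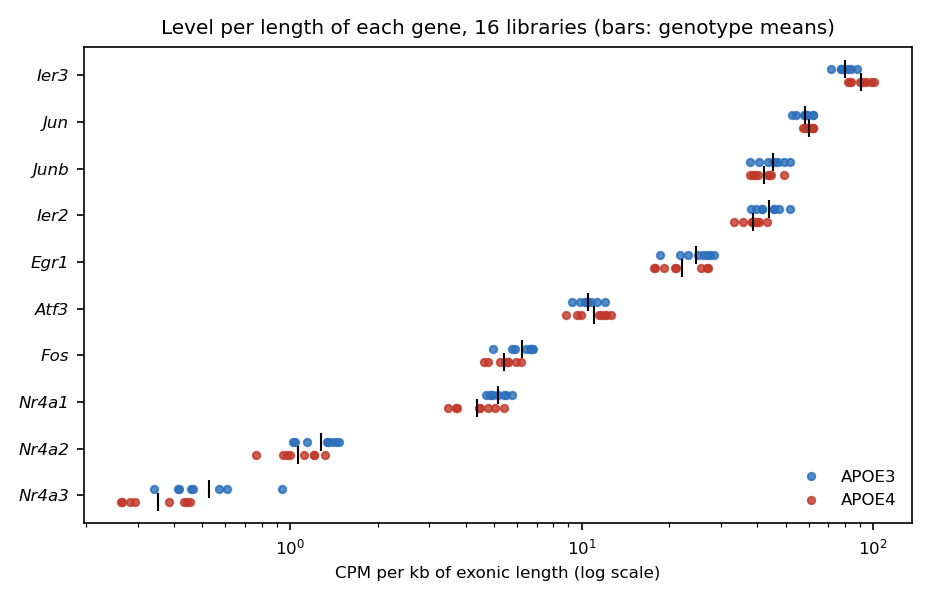
Level of each of the 10 genes as CPM per kb of exonic length on a log axis, with 1 point per library, *APOE3* in blue and *APOE4* in red, and a bar at each genotype mean. Means over the 16 libraries ran from 85.1 for Ier3 to 0.439 for Nr4a3, and the means fell in the same order in both genotypes.

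Set against *APOE3*, 2 of the 10 genes changed with *APOE4*. On the log2 scale Ier3 rose by 0.18 and Ier2 fell by 0.19. The other 8 did not pass the threshold, and 6 of those 8 had lower means with *APOE4*, the largest difference being that of Nr4a3. A gene was called by edgeR's quasi-likelihood test at a Benjamini-Hochberg adjusted p under 0.05, with 12481 genes tested. Of all those genes 12.8% were called, 6.71% higher and 6.09% lower, so 2 of 10 genes is a share near that background. Without adjustment, 6 of the 10 had p under 0.05 (1 higher, 5 lower), beside 29% of all genes. The median log2 difference of the 10 genes was -0.18, and that of all genes tested was -0.00022. None of the 10 separated the genotypes without overlap, which 0.625% of all genes did. In bulk RNA, fewer cells of a type and less RNA per cell cannot be told apart.

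**Figure D2:**
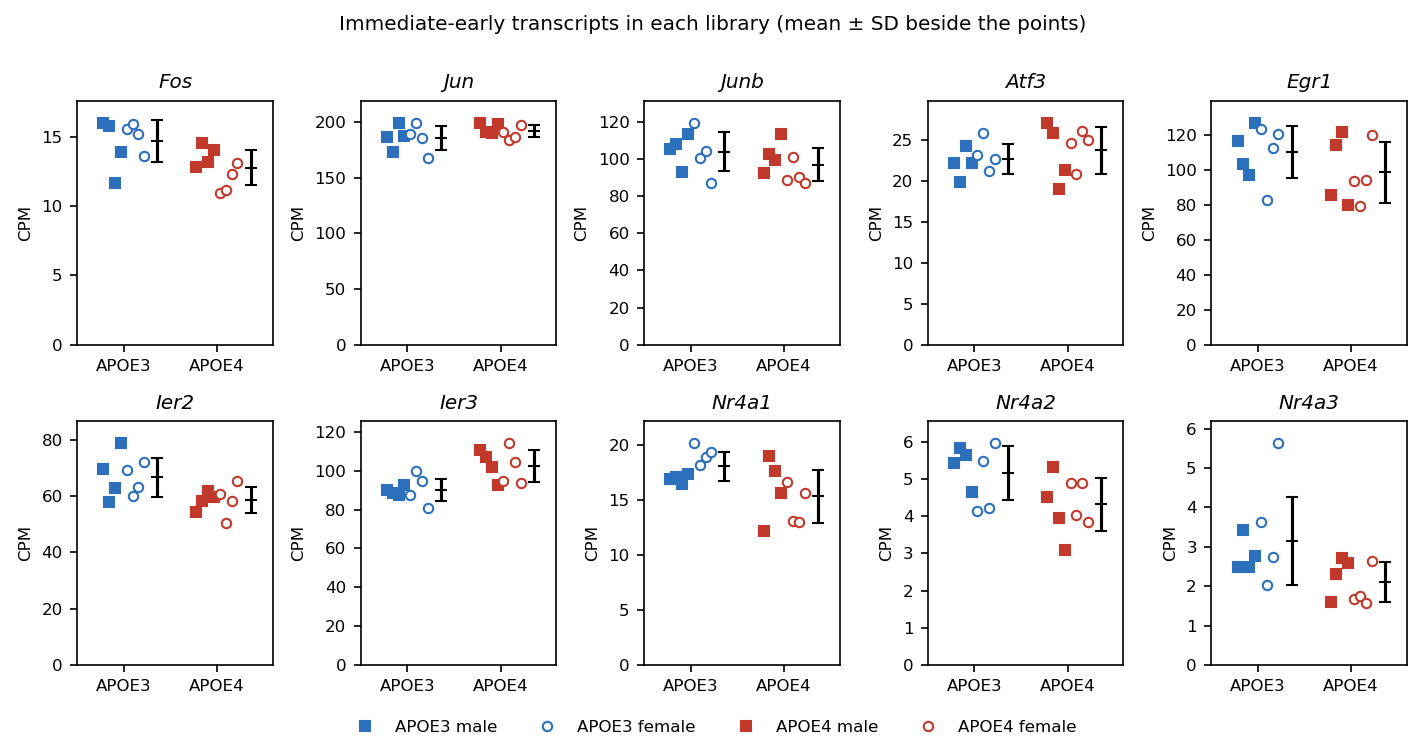
CPM of each of the 10 genes in each library, with *APOE3* in blue and *APOE4* in red, males as filled squares and females as open circles, and the mean ± SD of 8 libraries beside the points. For Ier3 all 8 *APOE4* libraries lay above the median of *APOE3* and for Fos, Ier2, Nr4a2 and Nr4a3 all 8 lay below it, and the genotypes overlapped for every gene. For this split, and for such counts of libraries given gene by gene below, no share of all genes is given.

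Among the AP-1 genes, Fos (chr12:85473890-85477273, plus strand, GRCm38) encodes the subunit that must pair with a Jun protein to bind DNA. In *APOE3* libraries the lowest, median and highest values of Fos were 11.6, 15.4 and 15.98 CPM, and in *APOE4* libraries they were 10.9, 12.9 and 14.5 CPM. All 8 *APOE4* libraries lay below the *APOE3* median, and the overlap came from *APOE3* libraries 27, 28 and 33, with 27 the lowest of them. The log2 difference was -0.21 (SE 0.0765) and was not called, with an edgeR adjusted p of 0.0798. Without *APOE3* library 27 it was -0.25 and passed the threshold, with an edgeR adjusted p of 0.0278.

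Jun (chr4:95049034-95052222, minus strand) encodes the subunit that can pair with itself or with Fos proteins, and Junb (chr8:84974484-84978718, minus strand) a Jun protein with weaker activity. Jun had a lowest, median and highest value of 168, 187 and 199 CPM in *APOE3* libraries and 183, 191 and 199 CPM in *APOE4* libraries. The *APOE4* libraries lay wholly within the *APOE3* range. The log2 difference of Jun was 0.05 (SE 0.0357; edgeR adjusted p = 0.407). Junb had 87.0, 105 and 119 CPM in *APOE3* and 87.0, 96.3 and 114 CPM in *APOE4* libraries, with 7 of 8 *APOE4* libraries below the *APOE3* median. Its log2 difference was -0.10 (SE 0.0619; edgeR adjusted p = 0.299). Jun overlaps Junos over 7.28% of its exonic bases and Junb overlaps Prdx2 over 7.52%, both on the opposite strand, and the strand setting of the count was not given in the sources used here.

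Atf3 (chr1:191170296-191218039, minus strand) encodes a stress-induced factor of the ATF family that often represses. Its lowest, median and highest values were 19.9, 22.4 and 25.8 CPM in *APOE3* libraries and 19.1, 24.9 and 27.1 CPM in *APOE4* libraries. The *APOE4* values spanned the whole of the *APOE3* range and beyond, with 5 of 8 above the *APOE3* median. The log2 difference was 0.06 (SE 0.0722; edgeR adjusted p = 0.600).

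Egr1 (chr18:34859823-34864984, plus strand) encodes a zinc finger factor induced by growth factors and shear. The lowest, median and highest values were 82.9, 115 and 127 CPM in *APOE3* libraries, and 79.4, 94.0 and 122 CPM in *APOE4* libraries. In *APOE4* the libraries 36, 37 and 43 stood at 115 to 122 CPM and the other 5 at 79.4 to 94.2 CPM. In *APOE3* library 31 stood lowest and the other 7 lay at 97.5 to 127 CPM. The log2 difference was -0.16 (SE 0.0982; edgeR adjusted p = 0.285).

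Ier2 (chr8:84661331-84662852, minus strand) encodes a small nuclear protein of the immediate-early response. It had 57.8, 66.2 and 78.8 CPM as lowest, median and highest in *APOE3* libraries and 50.5, 59.0 and 65.5 CPM in *APOE4* libraries. All 8 *APOE4* libraries lay below the *APOE3* median, 2 of them below every *APOE3* library, and 4 *APOE3* libraries lay above every *APOE4* library. The mean fell from 66.7 ± 6.98 to 58.6 ± 4.60 CPM (SD, n = 8 each), a log2 difference of -0.19 (SE 0.0605; edgeR adjusted p = 0.0469). That call was near the threshold. It was lost when any of *APOE3* libraries 25, 28, 30 or 33 or *APOE4* libraries 35 to 41 was left out, with log2 differences of -0.20 to -0.15 and edgeR adjusted p of 0.0518 to 0.0961.

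Ier3 (chr17:35821684-35822923, plus strand) encodes a factor linked to cell survival under stress. Its values ran in the other direction, with 80.7, 89.2 and 99.6 CPM in *APOE3* libraries and 92.5, 103 and 114 CPM in *APOE4* libraries. Every one of the 8 *APOE4* libraries exceeded the *APOE3* median, and 5 of them lay above every *APOE3* library. The mean rose from 90.2 ± 5.62 to 102 ± 8.13 CPM (SD, n = 8 each), a log2 difference of 0.18 (SE 0.0479; edgeR adjusted p = 0.0188). The call was kept in all 16 fits that left out 1 library.

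The Nr4a family encodes receptors that act without a known natural ligand, and their activity is thought to follow their amount. Nr4a1 (chr15:101254269-101274795, plus strand), also called Nur77, had 16.5, 17.8 and 20.2 CPM as lowest, median and highest in *APOE3* libraries and 12.2, 15.7 and 19.0 CPM in *APOE4* libraries. Of the *APOE4* libraries, 5 lay below every *APOE3* library, and library 36 alone lay above the *APOE3* median. The log2 difference was -0.23 (SE 0.0831) and was not called, with an edgeR adjusted p of 0.0695. Without *APOE4* library 36 it was -0.28, with an edgeR adjusted p of 0.0255.

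Nr4a2 (chr2:57106830-57124003, minus strand), also called Nurr1, had 4.15, 5.46 and 5.96 CPM in *APOE3* libraries and 3.09, 4.29 and 5.33 CPM in *APOE4* libraries. All 8 *APOE4* libraries lay below the *APOE3* median and 5 *APOE3* libraries lay above every *APOE4* library. The log2 difference was -0.26 (SE 0.116; edgeR adjusted p = 0.144), from 50 to 91 reads per library.

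Nr4a3 (chr4:48045153-48086447, plus strand), also called NOR-1, had 2.04, 2.75 and 5.63 CPM in *APOE3* libraries and 1.58, 2.03 and 2.72 CPM in *APOE4* libraries. All 8 *APOE4* libraries lay below the *APOE3* median, and *APOE3* library 33 stood apart at 5.63 CPM, above the next at 3.64 CPM. The log2 difference was -0.58 (SE 0.197) and was not called, with an edgeR adjusted p of 0.0588. Without *APOE3* library 33 it was -0.41 with an edgeR adjusted p of 0.140. It passed the threshold without *APOE3* library 31 (-0.64, edgeR adjusted p = 0.0289) and without *APOE4* library 43 (-0.63, edgeR adjusted p = 0.0468). Counts of 20 to 84 reads per library lie behind these values.

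**Figure D3:**
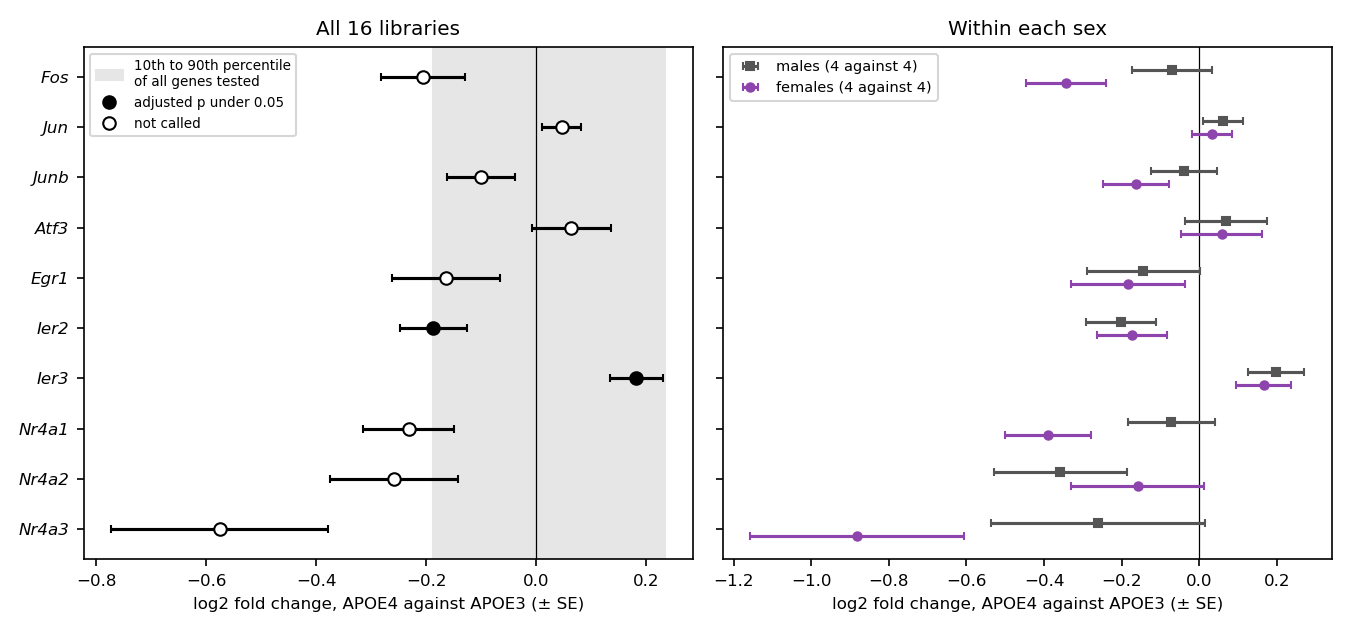
Log2 difference, *APOE4* against *APOE3*, with its SE, for each of the 10 genes over all 16 libraries (left) and within males and within females, 4 libraries against 4 (right). The grey band on the left covers the 10th to the 90th percentile of all genes tested, filled points mark Ier2 and Ier3 as called, and Nr4a3 lies lowest in the left plot at -0.58.

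The cell cycle list moved with genotype beside these genes. With the mean log2 level of its 30 genes as a covariate, edgeR called none of the 12481 genes, with 904 at an unadjusted p under 0.05, and none of the 10 genes had an unadjusted p under 0.05. Ier3 was then at 0.07 (SE 0.0570) and Ier2 at -0.06 (SE 0.0742) on the log2 scale. Fos was at -0.17 (SE 0.108), Nr4a2 at -0.31 (SE 0.167) and Nr4a1 at -0.03 (SE 0.0981), while Nr4a3 and Egr1 changed sign to 0.12 (SE 0.202) and 0.14 (SE 0.101). The score moved with genotype, so their parts cannot be told apart in these cultures.

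Within each sex, 4 libraries were set against 4 in a single fit of the 4 groups. No gene of the table was called in males or in females by edgeR (0% of genes in each), with 14.2% and 19.5% of genes at an unadjusted p under 0.05. Of the 10 genes, 2 in males (Ier2 and Ier3) and 4 in females (Fos, Ier3, Nr4a1 and Nr4a3) had an unadjusted p under 0.05. In females the *APOE3* libraries had 15.6, 15.9, 15.2 and 13.6 CPM of Fos and the *APOE4* libraries 10.9, 11.2, 12.3 and 13.1 CPM. For Nr4a1 the females had 20.2, 18.2, 18.9 and 19.4 CPM with *APOE3* and 16.7, 13.1, 12.996 and 15.7 CPM with *APOE4*. Female genotypes did not overlap for these 2 genes, as for 9.34% of all genes, and male genotypes overlapped for all 10 genes, where 7.98% of all genes did not.

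In females the log2 difference was -0.34 (SE 0.102; edgeR adjusted p = 0.0992) for Fos, -0.39 (SE 0.111; edgeR adjusted p = 0.0891) for Nr4a1 and -0.88 (SE 0.275; edgeR adjusted p = 0.108) for Nr4a3. In males the same differences were -0.07 (SE 0.102), -0.07 (SE 0.112) and -0.26 (SE 0.276). The difference between the sexes was itself tested. It was -0.27 (SE 0.145) for Fos, -0.32 (SE 0.157) for Nr4a1 and -0.62 (SE 0.391) for Nr4a3, with unadjusted p of 0.0746, 0.0586 and 0.129 by edgeR. No gene of the table passed that test after adjustment (0%, with 2.76% at an unadjusted p under 0.05), and none of the 10 genes had an unadjusted p under 0.05. Ier3 stood higher with *APOE4* by 0.20 (SE 0.0720) in males and 0.17 (SE 0.0719) in females, and Ier2 lower, at -0.20 (SE 0.0905) and -0.17 (SE 0.0904). Females and males, averaged over genotypes, differed in none of the 10 genes by edgeR, at an unadjusted p under 0.05 in none and with differences between -0.09 for Junb and 0.06 for Atf3, while 0.0721% of all genes were called and 4.26% had an unadjusted p under 0.05.

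The spread between libraries of a genotype was measured as edgeR's biological coefficient of variation, which sets aside the counting error. Jun was the steadiest of the 10 genes at 5.46%, and Ier3 had 6.71%. Ier2, Junb, Fos, Atf3, Nr4a1 and Nr4a2 lay between 8.31% and 12.1%. The median of all genes tested was 8.21%. Egr1 varied by 13.7%, where genes of its level typically varied by 6.82%, which is 2.01 times as much and the 97.6th percentile of all genes for that ratio. For Nr4a3 the coefficient was 23.3% beside 19.2% typical of its level, and for Junb 8.68% beside 6.86%. The ratio to the typical value was lowest for Jun at 0.712, the 27.2th percentile of all genes, and those of Fos (0.784) and Nr4a2 (0.782) were near the middle, at the 42.4th and 41.9th percentiles.

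**Figure D4:**
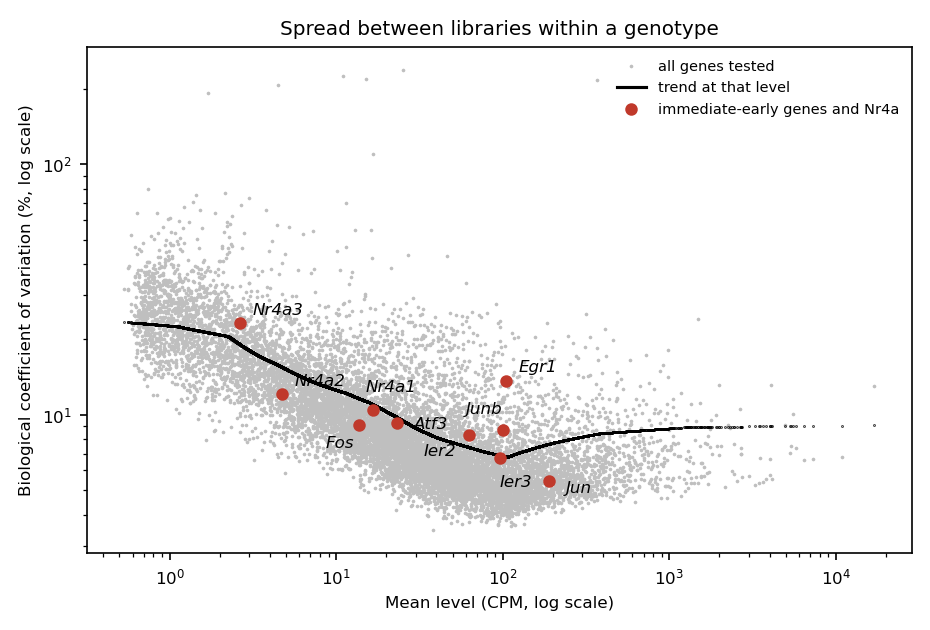
Biological coefficient of variation within genotype (%) against mean level (CPM), both on log axes, with all genes tested in grey, the value typical of each level as a black line and the 10 genes in red. Egr1 lies farthest above the line, at 13.7% against 6.82%, and Jun lies below it, at 5.46% against 7.66%.

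Whether the genes rose and fell together from culture to culture was asked of the 45 pairs, on log2 CPM as deviations from the genotype mean, by permutation tests adjusted over the pairs. Egr1 and Ier2 varied most alike. Pearson's r was 0.72 over 16 libraries (permutation p = 0.00177, adjusted p = 0.0796), which missed the threshold, and Spearman's rho was 0.79 (permutation p = 0.00048, adjusted p = 0.0216), which passed it. Leaving out the 2 libraries farthest from the median of Egr1 gave r = 0.70. Within *APOE3* libraries r was 0.79 (exact permutation p = 0.0185, n = 8) and within *APOE4* libraries 0.70 (exact permutation p = 0.05002, n = 8). In CPM the *APOE3* library 28 had the highest value of both genes and the *APOE4* library 40 the lowest of both. As deviations from the genotype mean these libraries were the extremes of Ier2 only. Egr1 was then highest in *APOE4* library 37 (0.32) and lowest in *APOE3* library 31 (-0.40).

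No pair passed the threshold by r and 1 of 45 by rho, while 9 pairs had an unadjusted permutation p under 0.05 by r, 5 of them positive. Egr1 with Nr4a1, Egr1 with Nr4a3 and Nr4a1 with Nr4a3 each had r = 0.55 (adjusted permutation p = 0.171 for each), and their rho was 0.61, 0.60 and 0.59 (adjusted permutation p = 0.158 for each). Without the 2 farthest libraries their r was 0.58, 0.40 and 0.55. The lowest r was that of Ier3 with Nr4a3, at -0.67 (adjusted permutation p = 0.108), with rho of -0.58 (adjusted permutation p = 0.158), r of -0.56 without the 2 farthest libraries, and r of -0.85 within *APOE3* and -0.51 within *APOE4*. Fos and Jun, whose proteins pair in AP-1, had r = 0.06 and rho = 0.15 (adjusted permutation p = 0.988 and 0.821). Of all 45 pairs, 24 had r above 0.

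**Figure D5:**
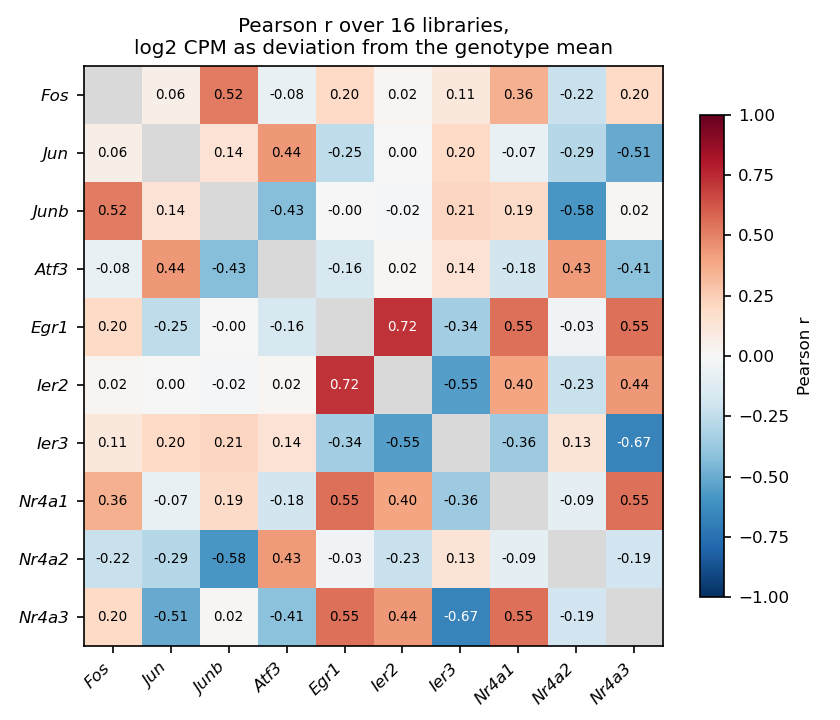
Pearson's r between each pair of the 10 genes over 16 libraries, on log2 CPM as deviations from the genotype mean, with red for positive and blue for negative values. The Egr1 and Ier2 pair is the darkest red at 0.72 and the Ier3 and Nr4a3 pair the darkest blue at -0.67.

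A score per library was made as the mean standardized deviation of the 10 genes, to find the transcripts whose pattern over the 16 libraries was most like theirs. Each of the 10 genes is a part of that score, so it was set against the mean of the other 9 instead. That r was 0.47 for Nr4a1, 0.43 for Egr1, 0.40 for Fos and 0.26 for Ier2, between -0.08 and 0.02 for Junb, Nr4a3, Atf3 and Jun, and -0.30 for Nr4a2 and -0.31 for Ier3. Outside the 10 genes, r with the score was highest for Pcdhga6 at 0.83, a protocadherin, and Apoo at 0.81, followed by Nt5c, Ankrd10, Ifitm10, Acvrl1, Fam124a, Grasp, Cx3cl1 and Szrd1 at 0.77 to 0.73. Acvrl1, a BMP receptor of endothelium, had r = 0.74 and Cx3cl1, the chemokine fractalkine, 0.73. The lowest r were those of Gm28557 at -0.82, Tpbg, Tent2 and Slc30a6 at -0.80 and Rp9 at -0.79. These are the extremes of 12481 genes over 16 libraries and are given as a description. Among them Apoo had low means of 1.04 CPM with *APOE3* and 1.47 CPM with *APOE4*, and Gm28557 of 1.22 and 1.01 CPM. The 30 cell cycle genes had a median r of -0.40 with the score, beside 0.0060 for all genes.

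The wider immediate-early group held 36 further genes, of which 34 were tested. Of those, 4 were called lower with *APOE4* and none higher, which is 11.8% of the tested genes beside 12.8% of all genes. Klf4, a factor of quiescent endothelium, was at 70.9 ± 10.5 CPM with *APOE3* and 54.0 ± 8.62 CPM with *APOE4* (SD, n = 8 each), a log2 difference of -0.39 (SE 0.0955; edgeR adjusted p = 0.0135). Zfp36, which speeds the decay of messages with AU-rich elements, those of many immediate-early genes among them, was at 80.1 ± 7.28 and 65.9 ± 4.42 CPM, a log2 difference of -0.28 (SE 0.0530; edgeR adjusted p = 0.00609). Per1, a clock repressor that is also an immediate-early gene, went from 263 ± 25.2 to 223 ± 7.06 CPM without overlap between the genotypes (-0.24, SE 0.0479; edgeR adjusted p = 0.00687). Sik1, a kinase that restrains the co-activators of CREB, went from 445 ± 35.7 to 383 ± 17.3 CPM (-0.22, SE 0.0449; edgeR adjusted p = 0.00802). All 4 calls were kept in the 16 fits that left out 1 library. In the list as a whole 26 genes lay below 0 and 8 above, with a median of -0.10, and all 13 genes with an unadjusted p under 0.05 were lower with *APOE4*, which 14.5% of all genes were.

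The nearest relatives of the 10 genes in that list, named for kinship with all values known, were not called, and several had differences as large as those of called genes with wider errors. Fosb, another Fos protein, had a log2 difference of -0.29 (SE 0.115), Fosl1 -0.16 (SE 0.131) and Fosl2 -0.13 (SE 0.0576). Jund, the most constant of the Jun proteins, had -0.09 (SE 0.0400), Egr3 -0.56 (SE 0.201) and Egr2 0.34 (SE 0.231), the last from 6 to 20 reads per library. Of the Ier genes in the list, Ier5 had 0.035 (SE 0.0385) and Ier5l -0.19 (SE 0.0784).

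Upstream of these genes, the MAP kinases, the kinases above them and the Rps6ka kinases were 17 tested genes. Rps6ka3 was called higher and Rps6ka1 and Map2k7 were called lower, which is 17.6% called beside 12.8% of all genes. The kinases Rps6ka1 and Rps6ka3, which phosphorylate CREB and serum response factor, had log2 differences of -0.21 (SE 0.0509; edgeR adjusted p = 0.0140) and 0.14 (SE 0.0404; edgeR adjusted p = 0.0300). Map2k7, which activates the JNK kinases, was at -0.17 (SE 0.0432; edgeR adjusted p = 0.0180). Of 6 genes of serum response factor and its partners, Elk3 was called lower at -0.12 (SE 0.0345; edgeR adjusted p = 0.0260), which is 16.7% of them. Of the 8 genes of CREB and its co-activators none was called by edgeR, with 4 at an unadjusted p under 0.05, all lower, where 29% of all genes had such a p and 14.5% were lower with it. DESeq2's Wald test called 3 of these 8, and edgeR with a filter of at least 10 counts in every library called 1. Over all genes, the 7 settings other than leaving out 1 library gave 0 to 1958 calls each, beside 1597 in the reported fit. Of 4 co-repressors of EGR proteins and partners of Nr4a receptors edgeR called none, with all 4 at an unadjusted p under 0.05, of which Nab1 alone was higher, beside 29% of all genes. DESeq2's Wald test, limma voom with sample quality weights and a filter of at least 10 counts in every library each called 1 of the 4.

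Of 14 phosphatases and Sprouty proteins that switch MAP kinases off again, 3 were called lower and none higher, which is 21.4% called beside 12.8% of all genes. Dusp4, a phosphatase, had -0.41 (SE 0.104; edgeR adjusted p = 0.0166), Spry1 -0.31 (SE 0.0878; edgeR adjusted p = 0.0286) and Dusp6, an ERK phosphatase, -0.12 (SE 0.0390; edgeR adjusted p = 0.0485). Among 13 partners in AP-1 dimers, Mafg at -0.19 (SE 0.0458; edgeR adjusted p = 0.0135) and Atf4 at -0.18 (SE 0.0435; edgeR adjusted p = 0.0120) were called lower and none higher, which is 15.4% called. Of 13 genes of message decay, Zfp36 (above) and Tob2 were called lower, with Tob2 at -0.13 (SE 0.0424; edgeR adjusted p = 0.0488). Cnot6, a deadenylase subunit, was called higher at 0.11 (SE 0.0290; edgeR adjusted p = 0.0235), so that 23.1% of these genes were called beside 12.8% of all genes. Without the filter on low counts 1 of the 13 was called, and DESeq2's Wald test called 5. Neither setting gave more than 1958 calls over all genes, beside 1597 in the reported fit.

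Downstream, 15 of 20 known targets of AP-1 and EGR1 were tested, and neither edgeR nor DESeq2's Wald test called any of them. Without adjustment 1 was higher and 2 were lower at p under 0.05, and 10 lay above 0 and 5 below with a median of 0.05. Of 12 heat shock genes, which cells switch on under proteotoxic stress, Hspa1b was called lower at -0.45 (SE 0.127; edgeR adjusted p = 0.0267) and none higher, which is 8.33% called beside 12.8% of all genes. Hspa1b has a close copy in Hspa1a, and reads shared by them could be split by the count.

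Some of these calls rested on single libraries or settings. Without the filter on low counts Rps6ka3, Dusp6, Tob2 and Cnot6 lost theirs (edgeR adjusted p of 0.0501 to 0.0677), and with sex as a covariate Dusp6 and Tob2 did (edgeR adjusted p = 0.05005 and 0.0568). Over the 7 settings other than leaving out 1 library, Dusp6 was called in 3. The call of Cnot6 was lost without *APOE3* library 26 (edgeR adjusted p = 0.05003) and that of Elk3 without *APOE3* library 28, 30 or 33 or *APOE4* library 41 (edgeR adjusted p up to 0.0595). Rps6ka3 lost its call without *APOE3* library 26, 28 or 30 or *APOE4* library 39, 40 or 41 (edgeR adjusted p up to 0.0630). For Spry1 these were *APOE3* libraries 26, 30, 32 and 33 and *APOE4* libraries 35, 39 and 41 (edgeR adjusted p up to 0.0666), and for Hspa1b *APOE3* libraries 26, 28, 30 and 33 and *APOE4* libraries 35, 40 and 41 (edgeR adjusted p up to 0.0630). Dusp6 kept its call in 3 of the 16 fits, those without *APOE3* library 31 or 32 or *APOE4* library 36 (edgeR adjusted p otherwise up to 0.0998). Tob2 kept its call in 5 fits, those without *APOE3* library 25, 27 or 31 or *APOE4* library 36 or 38 (edgeR adjusted p otherwise up to 0.104). The cell cycle list, at 1379 to 2753 CPM and 2277 to 3892 CPM in the genotypes, stood beside these groups as well, and with it as a covariate none of the named genes was called.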

How the data were processed

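RNA sequencing libraries of 16 brain endothelial cell cultures were analysed, 8 per *APOE* genotype. The values are whole-number read counts per gene as deposited by the authors, without normalization. Per the labels, RNA (100 ng) was amplified by 17 cycles of PCR and sequenced as 2 x 50 nt, and STAR and featureCounts were used. Versions, annotation release and strand setting were not given in the sources used here. Reads carry no molecular identifiers. Of 39057 gene identifiers, 38872 matched GENCODE M21, and 0 columns were left unmapped.

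Counts were filtered with filterByExpr, normalized by TMM and fitted with edgeR 4.0.16 (R 4.3.3) with genotype as the single term, by the quasi-likelihood test with Benjamini-Hochberg adjustment over 12481 genes and a threshold of 0.05. For log2 CPM the prior count was 2, and SE was derived from the F statistic and the log2 fold change. Sex was taken from a fit of 4 groups. Correlations used permutation tests with 100000 resamples, or all 40320 orders within a genotype, in scipy 1.17.1. The fit was tested on simulated data in which 200 genes were changed by a known log2 fold. It recovered 90 of them at 0.3, 145 at 0.5 and 185 at 1, with 3, 2 and 7 false calls. Smaller folds were not simulated.

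DESeq2 1.42.0, limma 3.58.1 with voom, other filters and size factors, sex or a cell cycle score as covariate, and leaving out each library were the alternatives. The 10 genes, the lists and the tests were chosen with earlier results of these data known. Named from other lists were up to 6 called genes with the largest change, and the 10 genes most and the 5 least like the score of the 10. The labels named no batch, and each library came from another animal.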

Additional observations from a re-analysis of the deposited data

Results flagged for a closer look

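Nr4a3 in *APOE3* library 33 stood apart from the other libraries of its genotype, at 5.63 CPM with the next at 3.64 CPM. The gap covered 0.555 of the range of the 8 libraries. It was 1 of 20 groups of values examined (10 genes in 2 genotypes), and chance marks about 1 in 20 such groups. Without that library the log2 difference of Nr4a3 went from -0.58 to -0.41 and its edgeR adjusted p from 0.0588 to 0.140.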

How the results depend on the processing

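The 10 genes gave 4 calls with DESeq2's Wald test (Ier2, Ier3, Nr4a1 and Nr4a3), 1 with sex as a covariate and 0 with a covariate for the cell cycle score, beside 2 in the reported fit, and 1 to 3 when 1 library was left out. All genes gave 1597 calls as reported, 0 with the cell cycle score and at most 1958 in any of the 7 settings that kept all libraries. With 1 library left out they gave 846 to 2127. The lowest of these counts came without *APOE4* library 41 (846), *APOE3* library 30 (853) and *APOE3* library 33 (952). With the cell cycle score the differences of Jun (-0.015), Egr1 (0.14), Atf3 (-0.028) and Nr4a3 (0.12) took the other sign, and in no other setting did any of the 10 change sign. Ier3 was called in 6 of 7 other settings and Ier2 in 5 of 7. Pairs that passed by r numbered 0 as reported, 4 without centring by genotype, 2 with centring by genotype and sex and 0 to 3 with 1 library left out, with 3 without *APOE4* library 36, 2 without 39 and 1 without 38. Calls for the difference between the sexes and between females and males among the 10 genes were 0 in each setting run. No paired analysis was possible because the genotypes share no replicate numbers. Depth limits Nr4a3 and Nr4a2 most, at 20 to 91 reads per library.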
